A study of Homo sapiens with 6 samples.

Results

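The 50 genes described here encode soluble hydrolases of the lysosome, proteins of its membrane and the transcription factors TFEB, TFE3 and MITF, which control many of the others. They were taken by gene symbol from the deposited comparison of SPINK2-silenced and control FUJIOKA cells, which lists 63236 genes, and 45 of the 50 reached the mean of 10 normalised reads at which genes were tested, among 16069 tested genes in all. FUJIOKA is a human acute myeloid leukaemia line that was used as a model of leukaemia with a complex karyotype. Both groups were this line, stably transduced with a doxycycline-inducible Tet-pLKO-puro vector, selected with puromycin and cultured with doxycycline. The 3 shNEG libraries carried a scrambled, non-targeting shRNA and the 3 shSPINK2 libraries a shRNA against SPINK2. The methods name 1 such shRNA and the labels 2, without saying which of them a library carries, and the time on doxycycline before RNA was taken for sequencing is not given in the sources used here. The libraries are labelled as separate samples, but nothing states separate cultures, so p-values measure the spread between these libraries, which may be technical.

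Lysosomal hydrolases break down proteins, glycans, sulphated sugars and lipids in an acid compartment. Most are made in the endoplasmic reticulum, tagged with mannose 6-phosphate in the Golgi and carried to the lysosome by receptors, whereas its membrane proteins protect the limiting membrane and move products out. In myeloid cells the compartment serves phagocytosis and antigen processing. TFEB, TFE3 and MITF (the MiT/TFE factors) bind a short palindromic element in the promoters of many lysosomal genes, and their activity is set largely by phosphorylation and movement into the nucleus, which RNA does not measure.

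The deposited table gives 1 mean per gene over all libraries, from which the whole reads of each library were recovered, with 33104464 to 33794823 reads per library in recovered genes. Values below are these reads divided by the size factor of the library (normalised reads), control libraries are those of shNEG and silenced libraries those of shSPINK2, and libraries are named a to c within a group because they could not be tied to the replicate numbers of the labels. SPINK2, the targeted gene, had 55.8, 63.0 and 53.1 normalised reads in the control libraries and 6.8, 8.9 and 6.1 in the silenced libraries, a log2 difference (shSPINK2 minus shNEG, throughout) of -2.91 ± 0.27 (SE) with a limma adjusted p of 2.18e-11. Of 9 myeloid markers 8 had a mean of at least 10. The summed level of the markers was 59914 to 63354 in shNEG and 62951 to 67886 in shSPINK2, and these ranges overlapped. CD33, ELANE, ITGAM and FCGR1A were called higher and MPO lower, while CEBPA, the highest of the markers, was not called. Of 4 progenitor markers, SPINK2 among them, 3 had a mean of at least 10. Their summed level did not overlap, at 2573 to 2654 in shNEG and 2889 to 3249 in shSPINK2, but was mostly FLT3 (mean 2810). FLT3 was called higher (0.30 ± 0.05 (SE)) and CD34 and SPINK2 lower. The 4 T cell and 3 erythroid markers all stayed below a mean of 10, and HBB was listed at 0. A mean of at least 10 was reached by 2 of 3 B cell, 1 of 4 epithelial and 2 of 3 fibroblast markers. The highest of each were CD79A (mean 183), KRT8 (mean 96.3) and COL1A1 (mean 149), against 32900 for the highest myeloid marker, CEBPA. CD79A was called higher and COL1A1 lower. The part of any of these in the lysosomal results was not tested. In bulk RNA, a change in the number of cells that express a gene and a change in RNA per cell cannot be told apart.

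Lysosomal genes were mostly higher after SPINK2 silencing. At a limma adjusted p under 0.05, 31 of the 45 tested members were called higher (68.9%), against 28.8% of all tested genes, and 4 were called lower (8.89%), against 29.8% of all tested genes. The 10 others were not called, so 35 were called in either direction (77.8%), against 58.6% of all tested genes. The median log2 difference of the 45 was 0.47 (a 1.38-fold level), while that of all tested genes was 0.001. Every shSPINK2 library lay above every shNEG library in 31 of the 45 (68.9%), against 30.8% of all tested genes. Every shSPINK2 library lay below every shNEG library in 4 of the 45 (8.89%), against 31.7% of all tested genes. These were the same members as those called, and the order and the call come from the same reads. Summed over the 45, normalised reads went from 214469 ± 4680 in shNEG to 308333 ± 6180 in shSPINK2 (SD, n = 3 each), a ratio of 1.44.

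Most rises were below a doubling. GAA and FUCA1 were called with a log2 difference over 1, so 2 members passed the fold threshold that the study applied (4.44%), as did 1.84% of all tested genes in this direction. Of the 45, 7 had a difference of at least 0.9, namely GAA, FUCA1, CTSF, NEU1, GM2A, CTSD and GALC, another 20 lay between 0.4 and 0.9, and 4 were called higher below 0.4. With at least 1.5-fold also required, 14 members were called higher, against 7.64% of all tested genes, and 1 lower, against 9.01%. FUCA1 and CTSF sat on either side of a difference of 1, so that 1 member passed it with TMM factors or with edgeR (GAA) and 3 with DESeq2 (GAA, FUCA1 and CTSF).

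**Figure D1:**
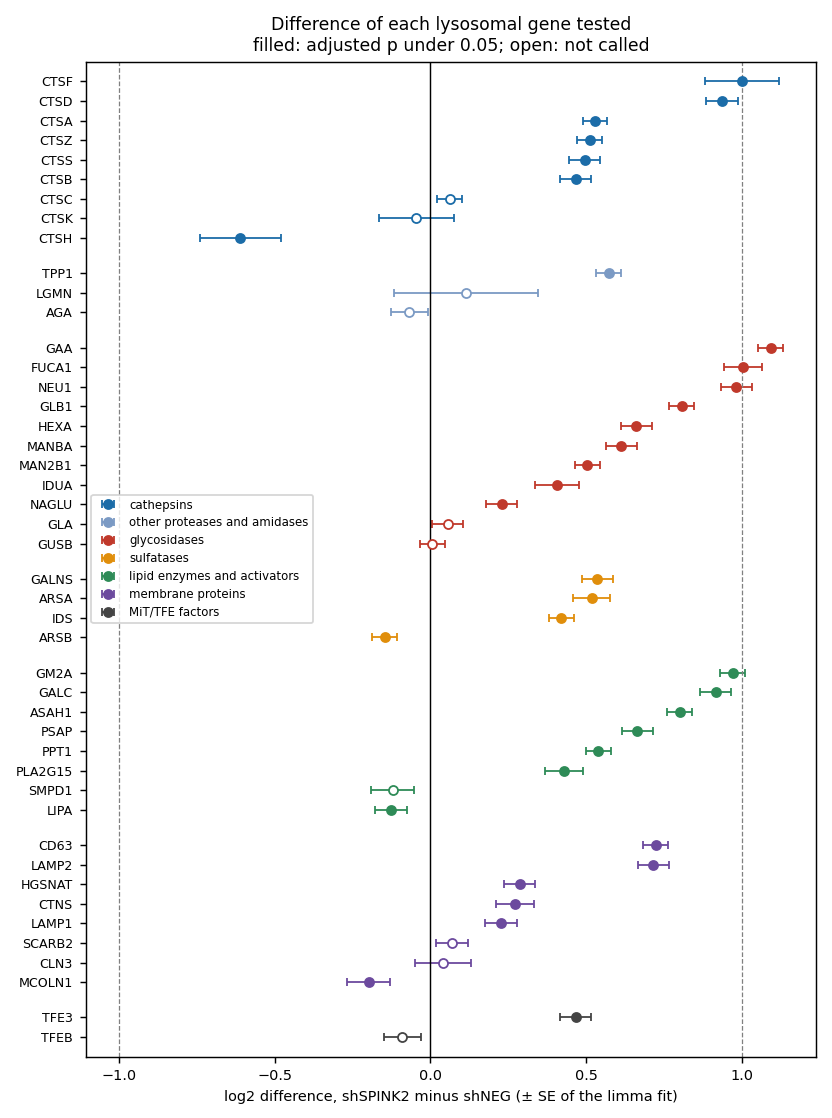
Log2 difference (shSPINK2 minus shNEG, horizontal axis) of the 45 tested lysosomal genes, with the standard error of the limma fit as bars and dashed lines at 1 and -1. Filled points passed an adjusted p of 0.05 and open points did not. The 31 genes called higher lie in every role group, from 0.23 to 1.09, and the 4 called lower are CTSH, ARSB, LIPA and MCOLN1.

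Among the cathepsins, the main lysosomal proteases, 6 of 9 tested members rose, 1 fell and 2 were not called, with a median difference of 0.49. Called higher were thus 66.7% and lower 11.1%, against 28.8% and 29.8% of all tested genes. CTSF, a cysteine cathepsin, had the largest rise of the group (chromosome 11, 66563464 to 66568879, GRCh38, as for all positions here). It was read at 81.8, 74.0 and 82.1 normalised reads in the control libraries and 159.7, 158.5 and 158.3 in the silenced libraries. The shSPINK2 libraries lay within a read or so of each other and about double the controls, with a log2 difference of 1.00 ± 0.12 (SE) and an adjusted p of 9.82e-09. CTSD, the abundant aspartic protease, had 7857, 7002 and 7843 normalised reads in the control libraries and 14778, 14607 and 13983 in the silenced libraries, with a difference of 0.94 ± 0.05 (SE) and an adjusted p of 3.97e-18. All of its shSPINK2 libraries were far above the controls, and 48.0% of the annotated exon bases of CTSD are shared with other genes, so that reads of those bases cannot be assigned with certainty.

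CTSA, a serine carboxypeptidase that also stabilises beta-galactosidase and neuraminidase 1, CTSZ, a cysteine carboxypeptidase, CTSS, which trims the invariant chain in antigen-presenting cells, and CTSB, a broad cysteine protease, rose by similar amounts. Their differences were 0.53 ± 0.04 (SE), 0.51 ± 0.04 (SE), 0.49 ± 0.05 (SE) and 0.47 ± 0.05 (SE), with adjusted p of 1.63e-12, 8.49e-12, 3.8e-11 and 2.63e-10. CTSC, the dipeptidyl peptidase that activates the granule serine proteases, was the cathepsin with the highest level in the control libraries and had 11475, 10782 and 11302 normalised reads in the control libraries and 11218, 12274 and 11543 in the silenced libraries. Its groups overlapped, the difference was 0.06 ± 0.04 (SE) and the adjusted p 0.246. CTSK, the collagenolytic cathepsin of osteoclasts, was also not called (-0.04 ± 0.12 (SE), adjusted p 0.775).

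CTSH, an aminopeptidase of the same family (chromosome 15, 78921058 to 78949574), moved the other way. It was read at 125.6, 125.9 and 127.1 normalised reads in the control libraries and 81.3, 77.3 and 89.3 in the silenced libraries. The control libraries were almost equal and every shSPINK2 library was lower, with a difference of -0.61 ± 0.13 (SE) and an adjusted p of 9.11e-05, which held without each library in turn. CTSL, the broad endopeptidase, was listed at 0. The table cannot show whether reads of CTSL, or of SGSH, GGH and CD68 below, were lost in counting.

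Of the other proteases and amidases, 1 of 3 tested members rose (33.3%), near the share of all tested genes called higher (28.8%). TPP1, the tripeptidyl peptidase lost in a form of neuronal ceroid lipofuscinosis (chromosome 11, 6612768 to 6619448), had 13880, 13322 and 13418 normalised reads in the control libraries and 19603, 20952 and 19877 in the silenced libraries. Every shSPINK2 library was above every control (0.57 ± 0.04 (SE), adjusted p 3.18e-13). AGA, which cleaves the asparagine-linked sugar, and LGMN, the asparaginyl endopeptidase, were not called (-0.07 ± 0.06 (SE), adjusted p 0.381, and 0.11 ± 0.23 (SE), adjusted p 0.694). LGMN was low, with 26, 23 and 30 reads in the control and 31, 28 and 27 in the silenced libraries, and its error was wide. GGH, the gamma-glutamyl hydrolase of folates, had 1 read in shNEG library b, 2 in shSPINK2 library b and 0 in the others.

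The glycosidases were the group with the most rises, 9 of 11 tested members, with a median difference of 0.61 and 0 called lower by limma (0 also at an unadjusted p under 0.05, by edgeR and by DESeq2). The share called higher was 81.8%, whereas of all tested genes 28.8% were called higher and 29.8% lower. GAA, the acid alpha-glucosidase that degrades lysosomal glycogen (chromosome 17, 80101533 to 80119881), had 4735, 4374 and 4627 normalised reads in the control libraries and 9481, 9607 and 10191 in the silenced libraries. The lowest shSPINK2 library was about double the highest control, and the log2 difference of 1.09 ± 0.04 (SE), a 2.13-fold level, was the largest of all members (adjusted p 2.23e-20). FUCA1, the alpha-fucosidase (chromosome 1, 23845077 to 23868290), had 446.7, 459.7 and 446.5 normalised reads in the control libraries and 866.3, 918.3 and 928.5 in the silenced libraries. Its groups were as clearly apart, at 1.00 ± 0.06 (SE) with an adjusted p of 9.63e-16.

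NEU1, the lysosomal sialidase, and GLB1, the beta-galactosidase, form a complex with CTSA. NEU1 had 2020, 1923 and 1962 normalised reads in the control libraries and 3771, 3923 and 3967 in the silenced libraries, with a difference of 0.98 ± 0.05 (SE) and an adjusted p of 4.39e-19. GLB1 went from 4735 ± 161 to 8276 ± 165 normalised reads (SD, n = 3), a difference of 0.81 ± 0.04 (SE) with an adjusted p of 2.48e-17. All 3 genes of the complex were thus called higher. NEU1 has 8 rows in the table, 7 of them at 0, and the row with reads was used.

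HEXA, the alpha subunit of beta-hexosaminidase, MANBA and MAN2B1, the beta- and alpha-mannosidase, IDUA, the alpha-iduronidase, and NAGLU, the alpha-N-acetylglucosaminidase, also rose, by 0.66, 0.61, 0.50, 0.41 and 0.23 on the log2 scale. The largest of their adjusted p was 0.000208, for NAGLU. GLA, the alpha-galactosidase, and GUSB, the beta-glucuronidase, did not pass the test. GUSB had 3896, 3721 and 3878 normalised reads in the control libraries and 3840, 3852 and 3842 in the silenced libraries, a difference of 0.01 ± 0.04 (SE), and GLA differed by 0.06 ± 0.05 (SE) (adjusted p 0.929 and 0.34).

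**Figure D2:**
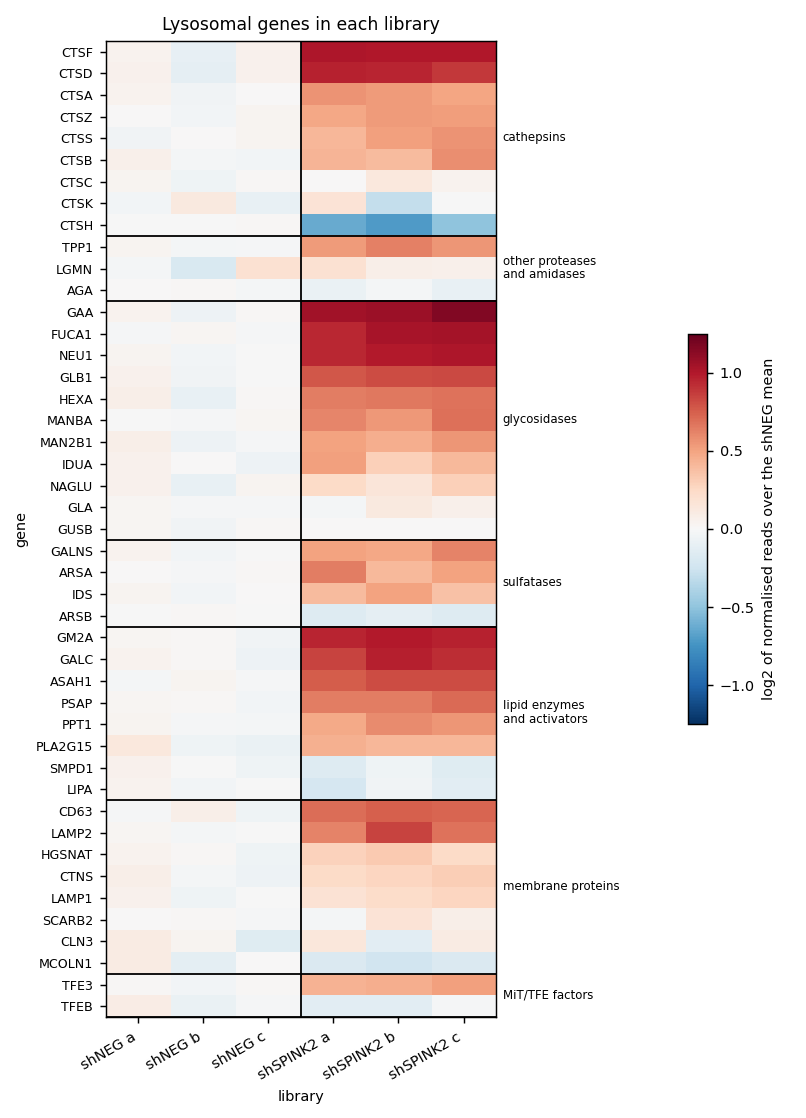
Log2 of the normalised reads of each of the 45 tested members (rows, by role) in each library (columns) over the mean of the 3 shNEG libraries, with red above and blue below that mean. The 3 shSPINK2 columns are alike for most genes, deepest for GAA, FUCA1 and CTSF, pale for GUSB, GLA and CTSC, and blue for CTSH.

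The sulfatases remove sulphate from glycosaminoglycans and sulpholipids, and 3 of 4 tested members rose (75.0%) while 1 fell (25.0%). Of all tested genes 28.8% were called higher and 29.8% lower, so the share that fell was near that of all genes. GALNS, which acts on keratan and chondroitin sulphate (chromosome 16, 88813734 to 88856970), had 3488, 3309 and 3377 normalised reads in the control libraries and 4795, 4733 and 5229 in the silenced libraries. Its difference was 0.54 ± 0.05 (SE) and its adjusted p 4.42e-12, with every shSPINK2 library above every control. ARSA, the arylsulfatase of sulphatide, and IDS, the iduronate sulfatase, rose by 0.52 ± 0.06 (SE) and 0.42 ± 0.04 (SE), with adjusted p of 1.6e-09 and 7e-10. Of the exon bases of IDS 75.9% are shared with other annotated genes.

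ARSB, which removes sulphate from N-acetylgalactosamine (chromosome 5, 78777209 to 78986087), had 3304, 3342 and 3295 normalised reads in the control libraries and 2964, 3060 and 2957 in the silenced libraries. The fall was small, -0.15 ± 0.04 (SE), and the groups did not overlap (adjusted p 0.00443). SGSH, the sulfamidase of heparan sulphate, had a mean of 0.333 normalised reads over the 6 libraries, and its reads were not recovered.

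Of the 8 lipid enzymes and activators, all tested, 6 rose, 1 fell and 1 was not called, with a median difference of 0.60. The shares were 75.0% higher and 12.5% lower, against 28.8% and 29.8% of all tested genes. GM2A, the activator that presents ganglioside GM2 to beta-hexosaminidase A (chromosome 5, 151212150 to 151270440), had the largest rise. It was read at 4310, 4263 and 4107 normalised reads in the control libraries and 8198, 8415 and 8230 in the silenced libraries. The difference was 0.97 ± 0.04 (SE) (adjusted p 1.26e-19), and every silenced library was far above every control. HEXA, the enzyme subunit that GM2A serves, rose by less (0.66 ± 0.05 (SE)).

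PSAP, the precursor of the 4 saposins that activate sphingolipid hydrolases (chromosome 10, 71816298 to 71851251), had the most reads of all members, 29547, 29239 and 28260 normalised reads in the control libraries and 45204, 45153 and 47496 in the silenced libraries. PPT1, the palmitoyl-protein thioesterase (chromosome 1, 40072710 to 40097260), had 17089, 16523 and 16380 normalised reads in the control libraries and 23204, 25106 and 24357 in the silenced libraries. Both were higher in every shSPINK2 library, by 0.66 ± 0.05 (SE) and 0.54 ± 0.04 (SE), with adjusted p of 2.4e-14 and 2.28e-12. GALC, the galactosylceramidase, ASAH1, the acid ceramidase, and PLA2G15, the lysosomal phospholipase A2, rose by 0.91 ± 0.05 (SE), 0.80 ± 0.04 (SE) and 0.43 ± 0.06 (SE), with adjusted p of 8.22e-18, 2.69e-17 and 4.52e-07.

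LIPA, the acid lipase of cholesteryl esters and triglycerides (chromosome 10, 89213569 to 89414557), was called lower, with 6623, 6249 and 6377 normalised reads in the control libraries and 5558, 6218 and 5870 in the silenced libraries. The highest shSPINK2 library was close to the lowest control, and the difference was -0.13 ± 0.05 (SE) (adjusted p 0.0172). Without shNEG library a it was -0.10 (adjusted p 0.105) and without shSPINK2 library a -0.09 (adjusted p 0.089), so the call rests on each of these libraries. SMPD1, the acid sphingomyelinase, was not called (-0.12 ± 0.07 (SE), adjusted p 0.136).

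Of the membrane proteins 5 of 8 tested members rose, 1 fell and 2 were not called, and the median difference was 0.25. Thus 62.5% were called higher and 12.5% lower, against 28.8% and 29.8% of all tested genes. CD63, a tetraspanin of late endosomes, lysosomes and granules (chromosome 12, 55725323 to 55729707), had 11353, 12060 and 11067 normalised reads in the control libraries and 18620, 19247 and 19036 in the silenced libraries. LAMP2, a heavily glycosylated protein of the limiting membrane, had 10238, 9848 and 10020 normalised reads in the control libraries and 15462, 18056 and 16018 in the silenced libraries. Both were higher in every shSPINK2 library, by 0.72 ± 0.04 (SE) and 0.72 ± 0.05 (SE), with adjusted p of 8.83e-16 and 1.21e-14. LAMP1, its close relative and the more abundant per length (chromosome 13, 113297239 to 113323672), had 28236, 26182 and 27118 normalised reads in the control libraries and 30897, 31788 and 32688 in the silenced libraries. The groups did not overlap, but the rise was 0.23 ± 0.05 (SE), below that of LAMP2 (adjusted p 7.77e-05). The difference between the rises of LAMP1 and LAMP2 was not tested.

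HGSNAT, which acetylates heparan sulphate across the membrane, and CTNS, the cystine exporter, rose by 0.29 ± 0.05 (SE) and 0.27 ± 0.06 (SE) (adjusted p 7.12e-06 and 0.000129). SCARB2, the carrier of glucocerebrosidase, and CLN3, a membrane protein of the juvenile ceroid lipofuscinosis, were not called (0.07 ± 0.05 (SE), adjusted p 0.226, and 0.04 ± 0.09 (SE), adjusted p 0.719). MCOLN1, the calcium channel of the lysosome (chromosome 19, 7522624 to 7534009), was called lower, with 609.3, 522.7 and 569.6 normalised reads in the control libraries and 499.4, 480.5 and 500.3 in the silenced libraries. All shSPINK2 libraries were below the controls (-0.20 ± 0.07 (SE), adjusted p 0.0133), but without shNEG library a, the highest, the difference was -0.15 with an adjusted p of 0.12.

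CD68, the macrophage glycoprotein, was low, with 8, 6 and 4 recovered reads in the control and 7, 3 and 14 in the silenced libraries. Its groups overlapped, it was below the level tested, and 85.6% of its annotated exon bases are shared with other genes.

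Among the MiT/TFE factors, TFE3 rose and TFEB was not called. TFE3 (chromosome X, 49028726 to 49043410) had 1847, 1789 and 1843 normalised reads in the control libraries and 2461, 2509 and 2601 in the silenced libraries, and every shSPINK2 library was above every control (0.47 ± 0.05 (SE), adjusted p 1.48e-10). TFEB (chromosome 6, 41683978 to 41736259) had 835.6, 740.5 and 773.9 normalised reads in the control libraries and 716.2, 716.2 and 774.3 in the silenced libraries. Its groups overlapped, with a difference of -0.09 ± 0.06 (SE) and an adjusted p of 0.215. MITF was near the limit of detection, with 2, 3 and 2 recovered reads in the control and 2, 0 and 2 in the silenced libraries. Per kilobase of canonical transcript TFE3 had 554.9 ± 9.85 in shNEG and 766.9 ± 21.6 in shSPINK2 and TFEB 335.8 ± 20.7 in shNEG and 315.3 ± 14.4 in shSPINK2 normalised reads (SD, n = 3).

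The promoters of the members were searched for the core of the MiT/TFE element, in windows of 300 bases that run from 250 before to 50 after the RefSeq start (GRCh38.p14). Both words are their own reverse complement, so 1 search covers both strands: TCACGTGA, and the shorter CACGTG that it contains. A window was given for 36 members, of which 6 (16.7%) held TCACGTGA and 11 (30.6%) held CACGTG. Of 27305 genes with a window, 1.18% and 8.77% held them, and of 35116 windows 0.98% and 7.26%. These 27305 include genes that were not tested, so they are not a like set for the members. Of all tested genes with a window, 1286 held CACGTG, 228 of them within TCACGTGA, and 8958 held neither. Of the tested members with a window, 11 held CACGTG, 6 of them within TCACGTGA, and 22 held neither. Genes with more than 1 start count once if any window holds the word. The 6 members with the longer word are shown first, with 11 bases on each side, 5′ to 3′ on the strand of the gene and with the word in capitals.
GAA, chr17:80101493-80101522, plus strand: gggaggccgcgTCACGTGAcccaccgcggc
GALNS, chr16:88857104-88857133, minus strand: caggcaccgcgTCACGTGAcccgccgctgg
CTSA, chr20:45891298-45891327, plus strand: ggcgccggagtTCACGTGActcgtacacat
LAMP1, chr13:113297199-113297228, plus strand: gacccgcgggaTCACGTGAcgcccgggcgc
CLN3, chr16:28492058-28492087, minus strand: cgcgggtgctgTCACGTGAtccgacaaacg
MCOLN1, chr19:7522571-7522600, plus strand: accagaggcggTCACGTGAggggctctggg
The word starts 77 bases before the start site in GAA, 26 in CTSA, 29 in LAMP1 and 42 in MCOLN1, and GAA, LAMP1 and MCOLN1 hold it 2 times, of which the first is printed. The 5 members with the shorter word alone follow.
CTSF, chr11:66568713-66568740, minus strand: catataacaagCACGTGatagaggtcag
CTSD, chr11:1763958-1763985, minus strand: ccggccgcgccCACGTGaccggtccggg
NEU1, chr6:31862931-31862958, minus strand: tgctgcgtgatCACGTGggaggagatga
CD63, chr12:55729173-55729200, minus strand: cgggtaggggcCACGTGgccctggccgg
ARSB, chr5:78986102-78986129, minus strand: aattcaataagCACGTGactaaaggatt

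Members with the word and members without it were called in both directions. Of the 6 with TCACGTGA, GAA, GALNS, CTSA and LAMP1 were called higher, CLN3 was not called and MCOLN1 was called lower, with a median difference of 0.38. Of the 11 with CACGTG, 8 were called higher and 2 lower (median 0.54), and of 22 tested members whose window lacks it 13 were called higher and 2 lower (median 0.41). FUCA1 and GM2A are in the last group. Over all tested genes with a window, 37.3% of 228 with TCACGTGA were called higher and 31.6% lower. For the 1286 with CACGTG these shares were 30.4% and 35.8%, for the 1058 with CACGTG alone 28.9% and 36.8%, and for the 8958 with neither word 31.1% and 33.8%. A match is a description of the letters in this window and not of binding, and elements outside it were not searched.

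The order of the levels, compared per kilobase of canonical transcript, was led by CD63, PSAP, LAMP1, PPT1 and CTSC. CD63 had 11235 ± 500 in shNEG and 18541 ± 312 in shSPINK2, and PSAP 10559 ± 245 in shNEG and 16722 ± 487 in shSPINK2 normalised reads per kilobase (SD, n = 3). LAMP1 had 10062 ± 381 in shNEG and 11770 ± 332 in shSPINK2, PPT1 7296 ± 164 in shNEG and 10605 ± 419 in shSPINK2 and CTSC 5982 ± 193 in shNEG and 6245 ± 289 in shSPINK2. In shNEG, PSAP lay below CD63, and LAMP1 below PSAP, by less than the sum of their SDs. PPT1 and CTSC lay below their neighbour by more than that, and in shSPINK2 all 5 were apart by more than that. CTSD, the next in the order, had 3682 ± 238 in shNEG and 7034 ± 204 in shSPINK2, so that it lay below CTSC in the controls and above it after silencing. The lowest of the tested members were CTSF, CTSH and LGMN, so the rises near 1 came from both ends of the range, CTSF at 58.2 and CTSD at 5358 normalised reads per kilobase over all libraries.

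**Figure D3:**
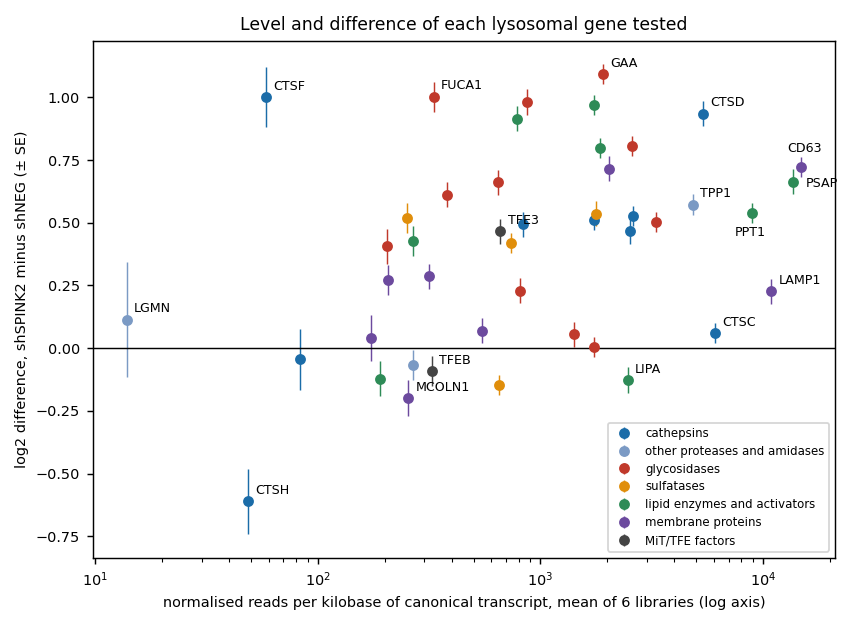
Log2 difference (vertical axis, with the standard error) against normalised reads per kilobase of canonical transcript over the 6 libraries (horizontal, log axis) for the 45 tested members, coloured by role. Rises near 1 occur at low (CTSF), middle (GAA) and high levels (CTSD). Of the most abundant genes, CTSC and LAMP1 lie near or little above 0, and CD63, PSAP and PPT1 lie at 0.54 to 0.72.

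Each role group of enzymes or membrane proteins gained in sum by more than the spread between libraries. Summed normalised reads went from 31909 ± 1150 to 49179 ± 1140 for the glycosidases (ratio 1.54), from 63248 ± 1360 to 96050 ± 2230 for the lipid enzymes and activators (1.52), from 14126 ± 299 to 20707 ± 727 for the other proteases and amidases (1.47, nearly all TPP1) and from 35860 ± 1150 to 50094 ± 545 for the cathepsins (1.4). The membrane proteins went from 54327 ± 1110 to 73438 ± 2270 (1.35) and the sulfatases from 12389 ± 191 to 15605 ± 163 (1.26) (SD, n = 3 for each). Members with many reads dominate such sums, PSAP and PPT1 among the lipid genes, and differences between groups were not tested.

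Other genes of the same compartment were read from lists that do not overlap the members. Of all tested genes 28.8% were called higher and 29.8% lower, the shares to set beside the counts of each list. Of 20 tested further lysosomal hydrolases 19 rose and 1, HYAL2, was not called, with a median difference of 0.64, and 0 were lower by limma, also at an unadjusted p under 0.05, by edgeR or by DESeq2. CTSO, a cysteine cathepsin, had 50.9, 75.0 and 56.1 normalised reads in the control libraries and 195.5, 185.3 and 187.7 in the silenced libraries, the largest rise of any gene listed (1.66 ± 0.14 (SE), adjusted p 1.46e-12). PLD3, a lysosomal exonuclease, had 2909, 2601 and 2699 normalised reads in the control libraries and 6806, 6612 and 6918 in the silenced libraries (1.31 ± 0.05 (SE), adjusted p 3.86e-22). Neither overlapped between groups.

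Of 25 tested further membrane proteins 12 rose (48.0%, against 28.8% of all tested genes) and 1 fell (4.0%, against 29.8%), with a median of 0.11. LAPTM5, a haematopoietic lysosomal membrane protein, and CD164, a sialomucin of endosomes, rose most (0.72 ± 0.05 (SE) and 0.61 ± 0.05 (SE)), and SLC11A2, the iron transporter, fell by 0.15 ± 0.06 (SE), with adjusted p of 6.47e-15, 5.06e-13 and 0.0195. The groups of SLC11A2 overlapped. SLC11A1 had the lowest difference of this list (-0.32) and was not called. Among genes for sorting to the lysosome and for sulfatase activation 11 of 23 rose (47.8%) and 6 fell (26.1%), with a median of 0.10. The share that fell was near that of all tested genes (29.8%). SUMF2 and SUMF1, which bind or modify the sulfatases in the endoplasmic reticulum, rose most (0.77 ± 0.04 (SE) and 0.62 ± 0.06 (SE), adjusted p 6.71e-17 and 9.19e-11). AP3B1 and GGA2, adaptors of vesicle sorting, fell most (-0.49 ± 0.05 (SE) and -0.27 ± 0.04 (SE), adjusted p 4.41e-11 and 1.1e-06).

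Of 9 tested genes that control the MiT/TFE factors or belong to their family, 4 rose (44.4%) and 1 fell (11.1%), against 28.8% and 29.8% of all tested genes. RRAGD, the Rag GTPase that brings them to the lysosome, and FNIP1, a partner of folliculin, rose most (0.52 ± 0.05 (SE) and 0.46 ± 0.06 (SE), adjusted p 1.53e-11 and 1e-08). PPP3R1, the regulatory subunit of calcineurin, the phosphatase of TFEB, fell (-0.58 ± 0.05 (SE), adjusted p 1.84e-12). All 4 tested cysteine protease inhibitors rose, by 0.44 to 0.69, led by CSTB and CST3 (0.69 ± 0.04 (SE) and 0.56 ± 0.04 (SE), adjusted p 1.07e-15 and 8.3e-13).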

How the data were processed

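The deposited table, 1 for the whole series, was made by the authors from mRNA libraries (paired reads of 150 bases): FastQC, alignment with STAR 2.7.11 to hg38, gene counts with featureCounts and comparison with DESeq2 1.40.0 (versions from the submitters' processing notes). The annotation and strand setting are not given in the sources used here. The authors' deposited mean column is a signal (counts divided by size factors, averaged over 6 libraries). Their deposited log2 fold change and its standard error were used only to decode reads, and the statistic, p-value and adjusted p-value columns of their comparison were not used.

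A gene with 1 read in 1 library shows that library's size factor in its mean. With these 6 factors, the reads of a gene are the whole numbers that give its mean to 15 digits and the deposited log2 ratio within 4e-14. Exactly 1 solution was found for 16069 of 16085 genes with a mean of 10 to 60000 (99.9%), and 46 genes above that were not searched. The procedure and the fits were tested on simulated data. No molecular identifiers are described, so depth speaks for counting error alone.

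Recovered reads divided by size factors were tested as log2(value + 0.5) with limma 3.58.1 (trend, shSPINK2 minus shNEG), with a minimum mean of 10 and Benjamini-Hochberg adjustment over 16069 genes. A gene was called at an adjusted p under 0.05. The pseudocount understates changes of low genes. Alternatives were edgeR 4.0.16, DESeq2 1.42.0, TMM factors, centring, a pseudocount of 2, mean limits of 1 and 50, stricter thresholds, protein-coding genes and leaving out each library. Positions, exon overlap and canonical transcript lengths came from GENCODE 44, and promoters from RefSeq. Named with values in every library were SPINK2, members past a log2 difference of 1, the largest called rise and fall of each role, the 5 highest per kilobase, the MiT/TFE factors and members below the test limit. CTSD, NEU1, LAMP2, GUSB and LGMN were added after their values were seen. From each other list the 2 largest calls in each direction were named. The members and lists were chosen with earlier results of these data known.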

Additional observations from a re-analysis of the deposited data

How the results depend on the processing

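The count of members called higher was 31 in the comparison as reported and 31 or 32 under every alternative but 1, the requirement of at least 1.5-fold, which left 14 members higher, 1 lower and 2675 of all genes. The count of members called lower was 4, and 2 at an adjusted p under 0.01. Leaving out each library in turn gave 2 to 4 members called lower, 31 to 32 called higher, 2 to 3 past a log2 difference of 1, 8518 to 9164 calls over all genes and a median difference of 0.45 to 0.49, with shNEG library a the one whose absence gave 2 and 0.49. Members past a difference of 1 numbered 1 with TMM factors and 1 with edgeR, where FUCA1 fell just short of it, and 3 with DESeq2, where CTSF passed it. Gene by gene, the alternatives compared were edgeR, DESeq2, TMM factors, centring, a pseudocount of 2, a mean limit of 1 and leaving out each library. Over 46 genes (the tested members and SPINK2), 548 of the 552 values under these kept the side of an adjusted p of 0.05. The call was lost in 3 (LIPA without shNEG library a or shSPINK2 library a, MCOLN1 without shNEG library a). It was gained in 1 (SCARB2 without shSPINK2 library a, 0.12, adjusted p 0.0302). No called gene changed direction, whereas some genes that were not called, such as CTSK and CLN3, changed sign under some alternatives. With 1 library left out, the spread of the remaining pair was pooled with that of all genes. No paired analysis was possible because the recovered libraries could not be tied to the replicate numbers of the labels. CTSL, SGSH, GGH, MITF and CD68 stayed below the level tested, the cause was not tested, and the few reads of LGMN leave its error wide.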
